A study of Mus musculus with 4 samples.

Results

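The cells described here are liver epithelial cells of mouse liver tumours that carried RNA of simple epithelial keratins but none of Krt19, the keratin of mature bile duct cells. A cell was counted when at least 4 of 6 genes were above 0 (Sox9, Krt8, Krt18, Tm4sf4, Fst and Igfbp1) and 7 genes were at 0 (Krt19, Krt7, Epcam, Cd3e, Cd79a, Clec4f and Kdr). The cells were thus chosen by measured values of these 13 genes, and 775 of 24802 cells met the rule, or 3.12% (95% exact binomial interval 2.91 to 3.35%, counting error only). Krt8 and Krt18 form the keratin filaments of hepatocytes and bile duct cells. Sox9 is a transcription factor of bile duct cells, of embryonic liver precursors and of some hepatocytes near the portal tract. Tm4sf4 is a membrane protein of the tetraspanin-like family, Fst encodes follistatin, a secreted inhibitor of activin, and Igfbp1 encodes a secreted protein that binds insulin-like growth factors.

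Single-cell RNA was measured in digested liver tumour tissue of C57BL/6 mice aged 5 months. Every mouse had received diethylnitrosamine, a carcinogen activated in hepatocytes, at 25 mg/kg in week 2 after birth, followed by carbon tetrachloride, which kills hepatocytes and forces the liver to regenerate, at 0.5 ml/kg each week. There were 2 samples from Miz1F/F mice, with floxed alleles of the gene for the transcription factor Miz1 (Zbtb17), and 2 from Miz1Δhep mice, and the labels name no Cre driver and no untreated mice. The 2 genotypes were the comparison of the study, but the deposited table pools all cells and nothing in the sources used here ties a cell to a sample. The barcodes end in 1 of 4 suffixes, and the cells of each suffix are named a barcode set, numbered 1 to 4. The sets are given side by side as parts of 1 pooled table, they are not replicates of a genotype, and no p-values were computed. Levels are CPM, the UMIs (unique molecular identifiers, each counting 1 RNA molecule) of a gene per 1000000 UMIs of the cells summed.

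Hepatocytes and bile duct cells arise from a common embryonic precursor. In an injured liver, hepatocytes can take on RNA of the duct lineage, such as Sox9, Spp1 and Cd24a, while keeping the hepatocyte regulator Hnf4a, and cells with both sets of genes are known from chemically injured and tumour-bearing livers. DNA damage stabilises the transcription factor p53, whose targets include the cell cycle inhibitor Cdkn1a and the p53 inhibitor Mdm2, and YAP with its DNA-binding partner TEAD drives genes such as Cyr61, Ankrd1 and Ctgf when cells are stretched or tissue is lost.

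The cells made up 30 of the cells of set 1 (1.17%), 286 of set 2 (4.60%), 219 of set 3 (4.54%) and 240 of set 4 (2.15%). They held 6608044 UMIs, with a median of 7404 UMIs and 2284 genes per cell and a range from 394 to 46917 UMIs. The median UMIs per cell of the whole table were lower in every set, from 906 in set 2 to 2648 in set 1. Depth moved with the rule. The 169 cells just outside it, with exactly 3 of the 6 genes, had a median of 1586 UMIs. The 197 cells just inside it, with exactly 4, had 4847, the 284 cells with 5 had 6731 and the 294 cells with all 6 had 9413.5. A further 331 cells had at least 4 of the 6 genes and were left out by a gene required at 0, most often Cd79a (109 cells), Epcam (96 cells) and Kdr (82 cells), while Krt19 was above 0 in 51 of them.

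Barcode sequences were compared between the sets. Of the 775 cells, 63 (8.13%) had a barcode sequence also seen in another set, against 685 of the other cells (2.85%). In 76 pairs, all between sets 2 and 3, the shallower cell held under 5% of the UMIs of the deeper cell and their profiles correlated above 0.3. Of these pairs, 40 involved a cell that met the rule, and those 40 had a median of 17149 UMIs in the deeper and 397.5 in the shallower cell. Without every cell with a shared barcode sequence, 712 cells met the rule, and gene counts without them are given beside the results that follow.

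The name Sox9 Krt8 cells was only partly met. Krt8 was above 0 in 98.8% of the cells, Krt18 in 98.7%, Tm4sf4 in 98.2% and Igfbp1 in 97%. Sox9 was above 0 in 464 cells (59.9%), and Fst also in 464. Both genes were present in 305 cells, Sox9 without Fst in 159, Fst without Sox9 in 159 and neither in 152. The 152 cells with neither had Krt8, Krt18, Tm4sf4 and Igfbp1 and nothing else of the 6. When the 713 cells with at least 2000 UMIs were thinned to 2000 UMIs each, Sox9 remained in 36.5% and Fst in 35.1%, and Krt8 in 87%. In 840 B cells thinned alike, which should lack these genes and show free RNA in the droplets, Sox9 was in 1.31%, Fst in 1.43%, Krt8 in 6.19% and Igfbp1 in 10.7%. The cells are therefore called Krt8/Krt18 cells here, after the genes nearly all of them had.

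The levels of the rule genes chose the cells and are given as a description. Krt8 stood at 2299, 1659, 2871 and 2049 CPM in sets 1 to 4, and Krt18 at 2433, 1406, 1879.9 and 2636 CPM. Tm4sf4 was at 1701, 1445, 2675 and 1782 CPM and Igfbp1 at 3711, 4418, 3008 and 3719 CPM. Each of these 4 genes varied by less than 2-fold across the sets, and Igfbp1 had the highest level of the 6 in every set. Sox9, on chromosome 11 (112782224 to 112787760, plus strand, GRCm38), was at 189.9, 389.6, 441 and 223 CPM, with sets 1 and 4 below sets 2 and 3. Fst, on chromosome 13 (114452290 to 114458951, minus strand), was at 209, 427, 322 and 375 CPM, lowest in set 1.

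**Figure D1:**
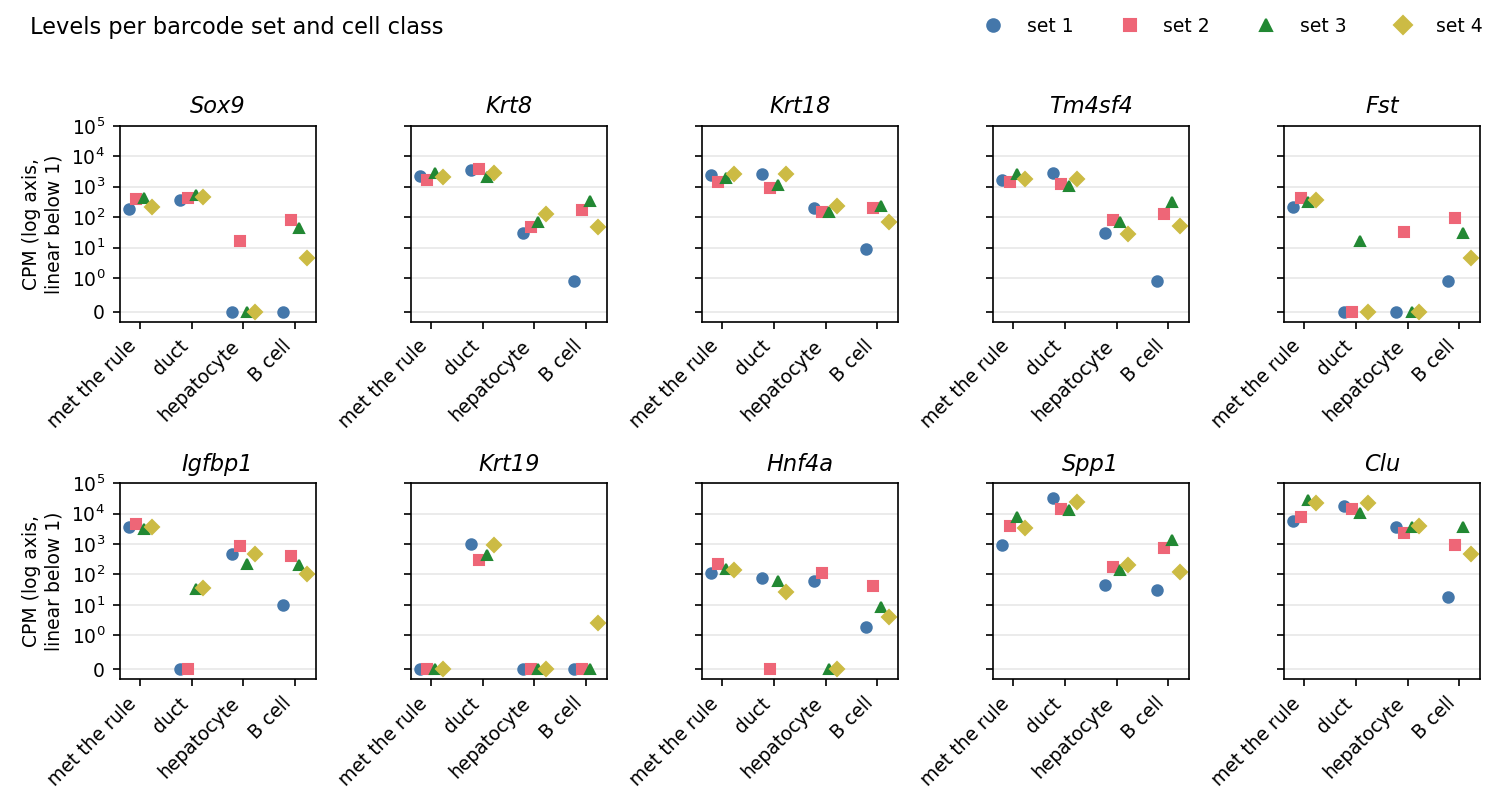
Levels of 10 genes in CPM (log axis, linear below 1) for cells that met the rule, duct cells, hepatocytes and B cells, with 1 point per barcode set. The Krt8/Krt18 cells lie near the duct cells for Sox9, Krt8, Krt18 and Clu, above them for Fst and Igfbp1, and at 0 for Krt19 by the rule.

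Bile duct cells were taken as cells with at least 2 of Krt19, Krt7 and Epcam and at least 2 of Sox9, Krt8 and Krt18. Only 35 such cells were found (2, 3, 15 and 15 in sets 1 to 4), so their levels are given without a count of differing genes. They also carried stromal and mesothelial RNA, with 6 such markers at 2335 CPM in set 3, 45.1 CPM in set 4 and 0 in sets 1 and 2, led in set 3 by Dcn at 1832 CPM and Msln at 332 CPM. Its part in the duct levels was not tested. Of 8 duct markers, 5 were at 0 in the Krt8/Krt18 cells, 3 of them by the rule (Krt19, Krt7 and Epcam). Cftr, the chloride channel of the duct membrane, had 0 of 6608044 UMIs, which allows at most 0.558 CPM (95% Poisson bound), and was at 35.8 CPM in the duct cells. Cldn4, a tight junction protein, was at 2.27 CPM against 103 in duct cells.

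Genes shared with ducts and precursors were present at high levels. Spp1, which encodes osteopontin, a secreted matrix protein, was at 911, 3922, 7903 and 3434 CPM, highest in set 3, against 19312 CPM in duct cells and 269.6 in B cells. Clu, which encodes the secreted chaperone clusterin, was at 5563, 7987, 27363 and 22939 CPM and at 16599 CPM in duct cells, so sets 3 and 4 of the Krt8/Krt18 cells lay above the duct level and sets 1 and 2 below it. Sox4, a transcription factor of embryonic tissues, was at 187, 199, 671 and 476 CPM, with duct cells at 613. Cd24a, a surface protein of duct and precursor cells, was at 99.1, 175, 289 and 233 CPM, below the 1018 CPM of duct cells, and only set 3 lay above the 254 CPM of B cells, which also make it. Tspan8, a tetraspanin of gut and duct epithelium, was at 716, 1305, 696 and 231 CPM.

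Hepatocyte genes were present in the same cells. Hnf4a, the master regulator of hepatocyte genes, was at 116, 226, 154 and 138 CPM, against 43.8 CPM (95% Poisson interval 21.8 to 78.3) in duct cells and 7.63 CPM in B cells. Alb, which encodes albumin, was at 38354, 38377, 12065 and 28040.3 CPM. Albumin RNA also floated free in these suspensions, since B cells were at 307, 2808, 1157 and 2272 CPM, but every set of Krt8/Krt18 cells lay above every set of B cells. Afp, the fetal albumin relative used as a tumour marker, was at 259, 578, 185 and 278 CPM, with 19.9 CPM in duct cells. Cyp2e1, an enzyme of hepatocytes around the central vein that activates carbon tetrachloride, was nearly absent, at 22, 14.7, 0.735 and 2.8 CPM.

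RNA of other cell types was present at low levels. Summed over 8 leukocyte markers it was 848, 1525, 2343 and 2868 CPM in sets 1 to 4, against 58439 CPM in B cells, and 6 stromal markers summed to at most 1.26 CPM in sets 1, 2 and 4. In set 3 the stromal sum was 107 CPM, of which 140 UMIs were Dcn, and 138 of those 140 were in 1 cell. Haemoglobin RNA, from 2 genes, was highest in set 3, at 4494 CPM, and lowest in set 1, at 666 CPM. The part of these RNAs in the levels was not tested. With every cell that had a UMI of Ptprc, Cd52, Pecam1 or Dcn left out, 539 cells remained.

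A comparison with hepatocytes of the same table was limited by depth and by how the hepatocytes were chosen. Hepatocytes were taken as cells with at least 10% of UMIs from 15 secreted hepatocyte products (Alb, Apoa1, Apoa2, Apoc3, Apoh, Ttr, Trf, Ahsg, Fgb, Fga, Fgg, Hpx, Vtn, Ambp and Rbp4), at most 1 of the 6 rule genes and none of the 7 genes required at 0 or Ptprc. Only 176 such cells were found, with a median of 778 UMIs, against 7404 in the Krt8/Krt18 cells, and the part of depth in the differences was not tested. Rule genes were seen more often in deeper cells, so the limit of 1 rule gene itself favours shallow cells. A gene was called where its log2 ratio of CPM plus 10 was at least 1 in size, with the same sign, in each set with 20 cells of both kinds. These were sets 1, 2 and 4, and 4141 genes whose mean level reached 20 CPM were examined. In the Krt8/Krt18 cells 400 genes (9.66%) were called higher and 35 (0.845%) lower, and the median log2 ratio of all genes was 0.53. With that median set to 0 in each set the counts were 167 and 99, so that 62.8% of calls were higher in place of 92.0%. Without shared barcode sequences 415 were higher and 34 lower. With hepatocytes allowed up to 3 rule genes, 331 cells with a median of 977 UMIs were found. Of 4300 genes, 293 were then higher and 29 lower, with a median log2 ratio of 0.37. Fewer sets have to pass when a set is left out, and the counts were then 599 and 68 without set 1, 655 and 84 without set 2 and 605 and 62 without set 4.

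The 12 genes with the highest ratio were Hspb1, Atf3, Hes1, Cxcl1, Mdm2, Spp1, Egr1, Phlda3, Hilpda, Cdkn1a, Fos and Chka. They include p53 targets, stress-induced transcription factors and secreted signals. Hspb1, a small heat shock protein, had a median log2 ratio of 4.60 (2.46 to 5.90) over the sets. Mdm2 had 4.07 (1.91 to 5.34) and Cdkn1a 3.82 (3.78 to 5.81). Cxcl1, a chemokine that draws neutrophils, had 4.18 (3.72 to 4.32), and Hes1, a repressor induced by Notch, 4.28 (3.48 to 4.61). Among the 12 lowest were Orm1, an acute phase protein, at -2.80 (-2.97 to -1.55), Cyp3a11, a drug-metabolising enzyme, at -1.98 (-2.08 to -1.24), and the major urinary protein Mup3, a member of a family of near-identical copies. Arhgdib, Wfdc17, Cd5l, Fcna, Celf2, Lst1, Srgn, Fxyd5 and C1qb made up the rest of the 12. Cd5l, Fcna and C1qb are genes of liver macrophages, and the 8 leukocyte markers summed to 4888, 1670.0 and 2864 CPM in the hepatocytes of sets 1, 2 and 4, against 848, 1525 and 2868 CPM in the Krt8/Krt18 cells. The part of this RNA in the lower genes was not tested. Of the gene lists with at least 3 genes examined, 7 had a median at least 1 log2 unit from that of all genes. The p53 targets had a median of 2.33, with 11 of 18 called higher, and the immediate early genes 2.65, with 13 of 17. Without the filter on low values these medians were 2.15 and 2.43. Of 24 duct and precursor genes other than the rule genes only 9 passed that filter, with a median of 2.52 and 7 called higher, and without the filter the median was 1.06. The transcription factors of hepatocytes had a median of 1.07, with 2 of 9 called higher and none lower. They thus also stood higher in the Krt8/Krt18 cells than in the cells taken as hepatocytes. Periportal genes had a median of -0.30, with none of 14 called.

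The Krt8/Krt18 cells differed among themselves in how much of their RNA came from the 15 hepatocyte products. The share had a median of 5.88% of UMIs per cell (quartiles 3.09 and 15.9%). Sets 2 and 4 each showed a group of cells under 10% and a second, broad group above 15%, while set 3 was almost wholly under 10%. Taking 10% as a limit, 509 cells were product-poor (12, 159, 200 and 138 in sets 1 to 4) and 266 product-rich (18, 127, 19 and 102). The limit was chosen after the shares were seen and 228 cells lay between 5 and 15%, so the split divides a range. B cells of the same table had a median share of 0.683% and duct cells 0.784%. The hepatocytes taken for comparison had a median share of 18.98% (quartiles 12.49 and 25.51%). Product-rich cells had 20.11% (quartiles 15.46 and 24.06%), so on this measure they lay in the range of those hepatocytes. Both groups were chosen by a share of at least 10%, so their shares are a description.

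**Figure D2:**
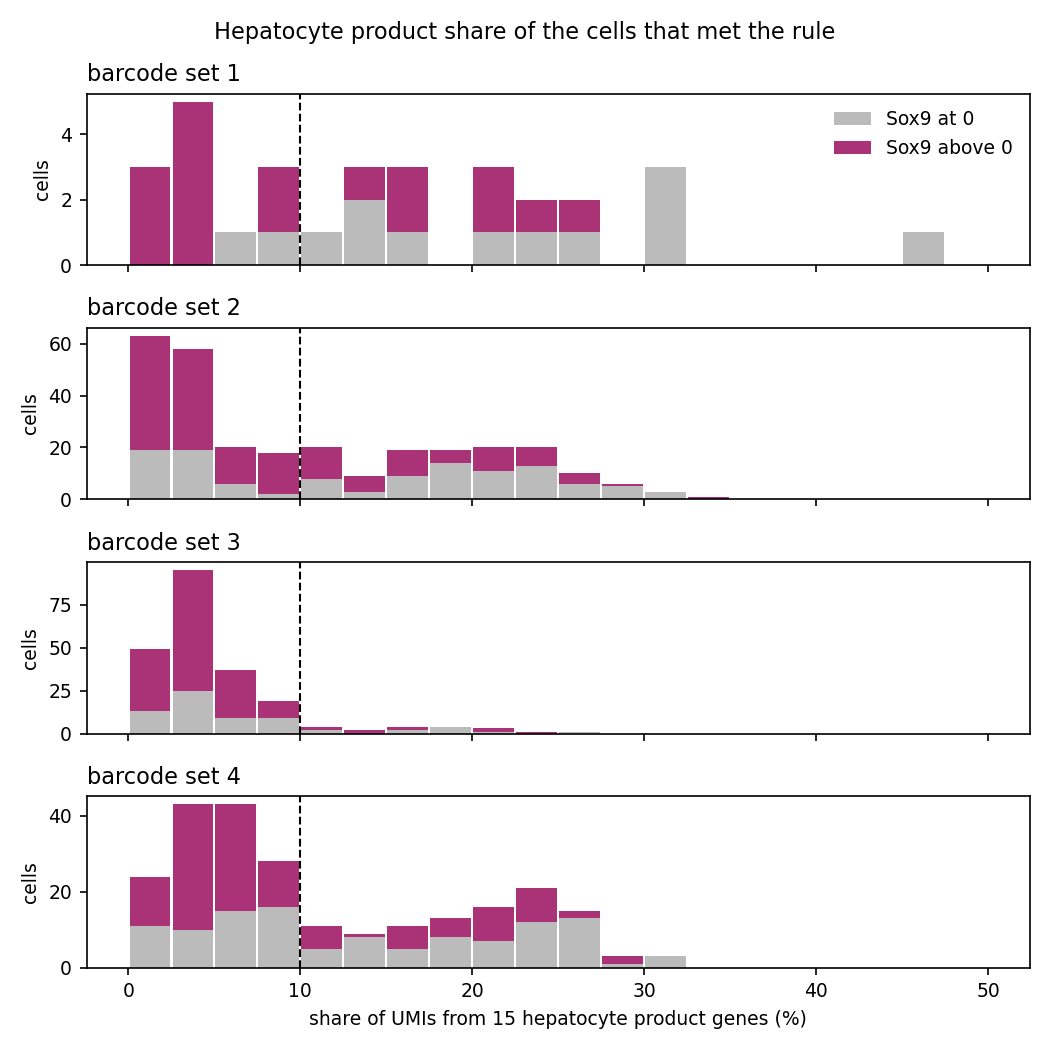
Number of Krt8/Krt18 cells by the share of their UMIs from 15 hepatocyte product genes, in steps of 2.5%, for barcode sets 1 to 4, with cells with and without a Sox9 UMI stacked and the 10% limit dashed. Sets 2 and 4 hold 127 and 102 cells at or above the limit and set 3 holds 19 of 219.

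Sox9 helped to choose the cells, so its values by product share are a description. Cells with a Sox9 UMI had a median share of 4.80%, and cells without one 9.92%. The order was the same in every set, with 8.72 against 22.4% in set 1, 5.22 against 15.4% in set 2, 3.61 against 4.28% in set 3 and 6.56 against 12.5% in set 4. At 2000 UMIs per cell, Sox9 was seen in 33.3, 57.6, 51.1 and 34.4% of product-poor cells and in 13.3, 13.5, 12.5 and 15.6% of product-rich cells of sets 1 to 4. In summed levels Sox9 was at 291, 697, 482 and 322 CPM in product-poor and 99.3, 109.6, 96.8 and 89.6 CPM in product-rich cells of sets 1 to 4, and the lowest product-poor set lay above the highest product-rich set. Krt8 showed the same order, at 4116, 2657, 3014 and 2868 against 664, 751, 1673 and 941 CPM. Igfbp1 did not, at 4791, 4122, 3052 and 4280.0 against 2739.5, 4688, 2634 and 2959 CPM, with overlapping ranges.

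Gene levels were then compared between product-poor and product-rich cells in sets 2 and 4, the sets with 20 cells of both. Set 3 had 19 product-rich cells and set 1 had 12 product-poor cells, and their levels are printed beside the others. Product-rich cells held only 191275 UMIs in set 1 and 144670 in set 3, so low levels printed for them can rest on 1 UMI. Some genes below are said to differ without overlap over all 4 sets. They were picked from lists or ratios, and how many of all genes do so was not counted. Of 5133 genes, 266 (5.18%) were called higher in product-poor cells and 211 (4.11%) lower, with a median log2 ratio of 0.24. The ratio was above 0 in both sets for 2834 of the 5133 genes and below 0 in both for 1167, whatever their list. Because the products fill a part of the total in product-rich cells, the comparison was repeated without the 15 products in the totals. It then gave 179 higher and 293 lower, so 37.9% of calls were higher in place of 55.8%. Setting the median of all genes to 0 gave 155 and 288, or 35.0% higher. Without shared barcode sequences there were 267 and 221, and with set 3 added 152 and 175. Set 4 alone, without set 2, gave 447 and 301, and set 2 alone 571 and 294. Pooled over all sets, product-poor cells had a median of 6208 UMIs against 8843.5. They were the shallower in set 2, at 5448 against 8846, and the deeper in set 4, at 10767.5 against 8830.5. Thinning every cell to 2000 UMIs gave 343 and 224.

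**Figure D3:**
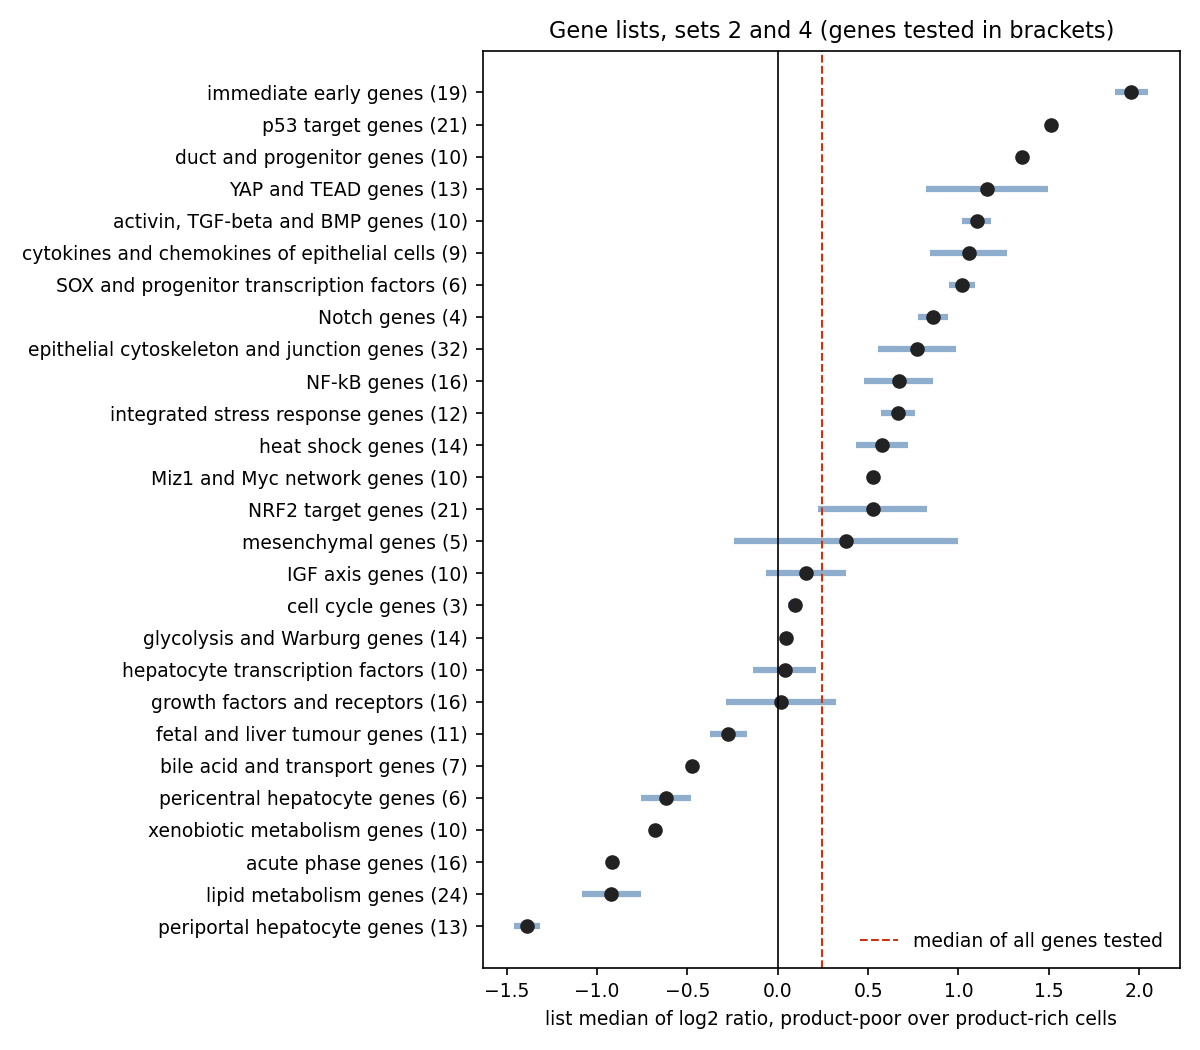
Median log2 ratio of product-poor over product-rich cells for the gene lists with at least 3 genes examined, with the point at the median over sets 2 and 4, the bar from the lower to the higher set and the dashed line at the median of all genes. Immediate early genes (1.96) and p53 targets (1.51) lie farthest right and periportal genes (-1.39) farthest left.

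Targets of p53 stood higher in product-poor cells. Of 21 examined, 15 were called higher and none lower, all 21 were above 0 in both sets, and their median was 1.51 against 0.24 for all genes and 1.32 with the products left out of the totals. Cdkn1a, which encodes the cell cycle inhibitor p21, was at 2355, 1818, 1048 and 2714 CPM in product-poor and 559, 259, 145 and 375 CPM in product-rich cells of sets 1 to 4. Every product-poor value was above every product-rich value, and duct cells, at 135 CPM, were below all 8. Mdm2, the ligase that degrades p53, was at 128, 759.8, 145 and 610.3 against 47.1, 118, 34.6 and 102 CPM, and its product-poor levels split into a high pair (sets 2 and 4) and a low pair (sets 1 and 3). Gdf15, a secreted stress hormone, was at 773, 683, 307 and 1066 against 256, 146, 82.9 and 268 CPM. Btg2, an inhibitor of proliferation, was at 2291, 1851, 1282 and 2042 against 1004, 507, 332 and 547 CPM, and Bax, which opens the mitochondrial membrane in cell death, at 651, 486, 337 and 657 against 178, 182, 124 and 235 CPM. Btg2 and Bax also differed without overlap between the groups. Rps27l, a ribosomal protein relative induced by p53, had the highest level of the list over all Krt8/Krt18 cells, at 2302, 2932, 1831 and 2816 against 1171, 1378, 1085 and 1459 CPM, and a smaller log2 ratio of 1.01 (0.94 to 1.08). The tumour suppressor locus Cdkn2a, which is not a target of p53 but acts upstream of it, was at 262, 304, 55.9 and 547 against 73.2, 44, 6.91 and 110.3 CPM, and its product-poor level in set 3 was below the product-rich level in sets 1 and 4.

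Immediate early genes, which cells switch on within minutes of growth signals or stress, had the highest list median, 1.96, with 17 of 19 called higher and none lower. Fos, a subunit of the AP-1 transcription factor, was at 2610.4, 1979, 3903 and 3788 CPM in product-poor and 983, 536, 974.63 and 919 CPM in product-rich cells. Atf3, a stress-induced repressor, was at 1791, 1048, 1412 and 1658 against 434, 241, 256 and 316 CPM, and Klf6, a zinc finger factor of injured liver, at 1999.99, 1324, 1510.5 and 1659.8 against 523, 229, 442 and 332 CPM. For all 3 genes every product-poor set lay above every product-rich set. Junb, another AP-1 subunit, was at 2558, 1634, 2151 and 2197 against 878, 439, 525 and 523 CPM, but B cells, at 1233, 1987, 2166 and 1558 CPM, overlapped the product-poor sets, whereas Fos in B cells was at 197, 186, 501 and 313 CPM. Fosb and Fosl1, further AP-1 subunits, were among the 12 genes of highest ratio, with Fosb at 2.66 (2.65 to 2.67) and Fosl1 at 2.75 (2.30 to 3.21).

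Among duct and precursor genes other than the rule genes, 7 of 10 were called higher in product-poor cells and none lower, with a median of 1.35. Without the filter on low values the median of this list was 0.81. Cd24a was at 198, 321, 320.0 and 370.2 against 10.5, 42.4, 27.6 and 46.2 CPM, a log2 ratio of 2.71 (2.66 to 2.76). Sox4 was at 302, 357, 727 and 702 against 83.6, 56, 200.5 and 169.7 CPM, and Clu at 5855, 10999, 29259 and 31131 against 5301, 5247, 11433 and 11843 CPM. Spp1 was at 471, 6644, 8155 and 5179.9 against 1307, 1445, 5779 and 1069 CPM, so product-poor cells were higher in sets 2, 3 and 4 and lower in set 1. Hes1, the main gene of the Notch list, was at 942, 2447, 2627 and 629 against 308, 1025, 1666 and 225 CPM and differed as much between sets as between the groups. Onecut2, a factor shared by hepatocyte and duct precursors, was at 180.2, 192, 321 and 88.4 against 68, 67.2, 118 and 30.2 CPM.

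**Figure D4:**
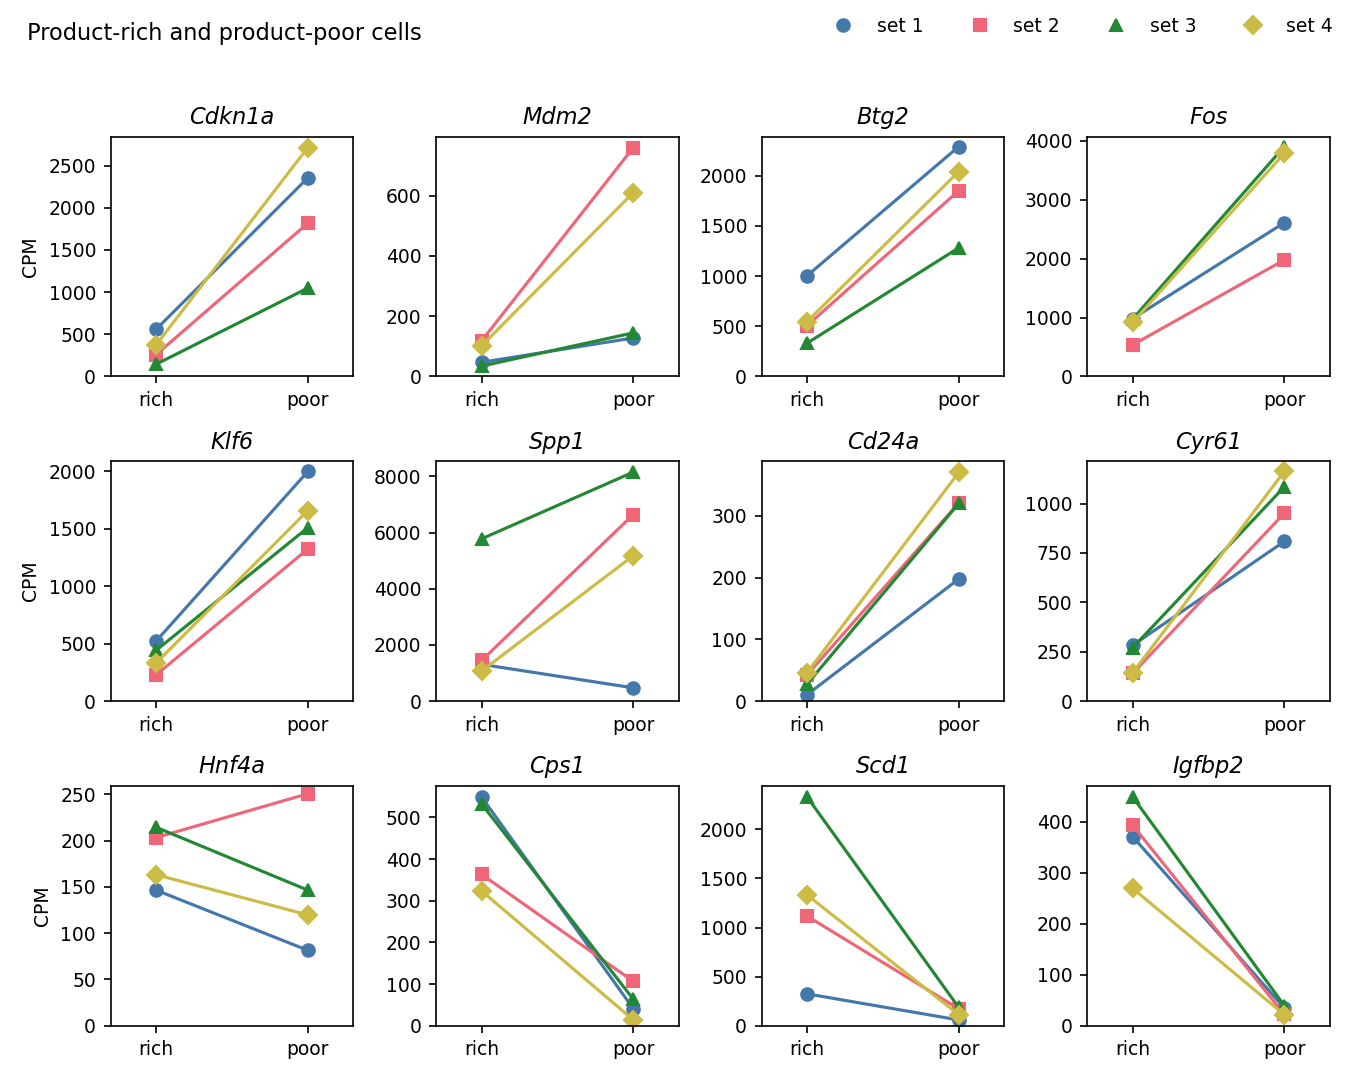
Levels of 12 genes in CPM in product-rich and product-poor Krt8/Krt18 cells, with a line for each barcode set and each axis starting at 0. Cdkn1a, Klf6 and Cd24a are higher and Cps1, Scd1 and Igfbp2 lower in the product-poor cells of all 4 sets, while Hnf4a lines cross and Spp1 is lower in set 1.

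Genes driven by YAP and TEAD had a median of 1.16, with 5 of 13 called higher and 11 above 0 in both sets, and a median of 0.54 without the filter on low values. Cyr61, a secreted matrix protein also named Ccn1, was at 808, 951, 1084 and 1163 CPM in product-poor and 282, 140.0, 269.6 and 142 CPM in product-rich cells, without overlap, and was among the 12 genes of highest ratio. Ankrd1, a nuclear and muscle ankyrin repeat protein, was at 122, 150.4, 79.8 and 58.5 against 5.23, 11.2, 6.91 and 20.7 CPM, also without overlap. The values of 5.23 and 6.91 CPM, in product-rich cells of sets 1 and 3, each rest on 1 UMI. Ctgf was at 0, 67.7, 100.4 and 7.66 against 0, 4.8, 41.5 and 0 CPM and was low or absent in sets 1 and 4. Yap1, the coactivator itself, was at 23.3, 59.8, 51 and 29.9 against 20.9, 47.2, 41.5 and 38.6 CPM, with overlapping ranges. To show the promoters behind the pair that did not overlap, the 250 bases before each start site are printed from RefSeq (GRCm38.p6), 5′ to 3′ on the gene's own strand, with matches to GGAATG, the core of the TEAD motif, or its complement CATTCC in capitals. The Cyr61 window is chr3:145649986-145650235 and the Ankrd1 window chr19:36119845-36120094, both on the minus strand.
Cyr61: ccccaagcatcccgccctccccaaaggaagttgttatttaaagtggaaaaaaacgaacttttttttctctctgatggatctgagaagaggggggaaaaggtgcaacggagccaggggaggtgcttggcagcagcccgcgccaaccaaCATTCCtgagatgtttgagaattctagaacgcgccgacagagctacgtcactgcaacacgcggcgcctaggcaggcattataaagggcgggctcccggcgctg
Ankrd1: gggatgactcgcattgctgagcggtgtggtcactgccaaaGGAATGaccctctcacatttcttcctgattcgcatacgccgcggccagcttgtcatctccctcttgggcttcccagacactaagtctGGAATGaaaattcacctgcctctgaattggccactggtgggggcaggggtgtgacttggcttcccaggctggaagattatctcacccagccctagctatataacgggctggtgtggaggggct
The Cyr61 window held 1 match, whose first base is at -103 from the start site, and the Ankrd1 window 2, at -210 and -123. Of 32851 windows of the same length, 4153 (12.6%) held at least 1 match on either strand. Neither window held TGANTCA, the AP-1 motif, which 6.75% of windows held. A match of letters is a description and says nothing on binding here.

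Genes of the activin, TGF-beta and BMP pathways, to which the activin inhibitor Fst belongs, had a median of 1.10, with 4 of 10 called higher, and of 0.29 without the filter on low values. Inhba, which encodes the activin A subunit, was at 17.4, 44, 80.6 and 77.9 against 15.7, 8, 27.6 and 22.6 CPM, low throughout. Id1, a target of BMP, was at 366, 157, 192 and 205 against 47.1, 81.6, 124 and 66 CPM. Fst itself, as a rule gene, was at 273, 761, 350.5 and 555 against 152, 123, 82.9 and 132 CPM. Fst and Id1 were each higher in the product-poor cells of all 4 sets.

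The NF-kB list, which bears on the pathway named in the title of the study, had a median of 0.67. Of its 16 genes, 3 were called higher and 12 were above 0 in both sets, as were 2834 of all 5133 genes. With the products left out of the totals the median was 0.48. Nfkbia, the inhibitor that NF-kB itself induces, was at 326, 267, 455 and 273 against 167, 125, 104 and 79.2 CPM, and Icam1, an adhesion protein, at 169, 189.9, 395 and 194 against 157, 75.2, 124 and 70.7 CPM. Rela, the NF-kB subunit, was at 87.2, 104, 166 and 76.6 against 52.3, 44.8, 89.9 and 37.7 CPM. Chemokines and cytokines had a median of 1.06, with 4 of 9 called higher, and of 0.24 without the filter. Cxcl1 was at 1378, 1139, 1065 and 1489 against 1448, 391, 221 and 452 CPM, and in set 1 the product-rich cells were the higher. Ccl2, which draws monocytes, was at 0, 33.4, 97.1 and 45.9 against 0, 8, 6.91 and 2.83 CPM, and Lif, a cytokine of the interleukin-6 family, at 17.4, 89.7, 11.5 and 51.5 against 20.9, 3.2, 0 and 8.48 CPM. Both were higher in the product-poor cells of sets 2, 3 and 4 and not in set 1.

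Genes of the hepatocyte's metabolic work stood lower in product-poor cells, beside the products that defined the split. Of 13 periportal genes 9 were called lower and none higher, with a median of -1.39. Cps1, the first enzyme of the urea cycle, was at 40.7, 106, 63.3 and 13.9 against 549, 363, 532 and 323 CPM, without overlap. Arg1, the last enzyme of the cycle, was at 128, 146, 65 and 48.7 against 842, 622, 608 and 137 CPM, with product-poor set 2 above product-rich set 4. Of 24 genes of lipid metabolism 8 were called lower and none higher, with a median of -0.92. Scd1, which makes monounsaturated fatty acids, was at 58.1, 171, 185 and 112 against 324, 1116, 2329 and 1331 CPM, and Fabp1, a fatty acid carrier, at 0, 631, 27.1 and 302 against 1919, 1945, 892 and 1644 CPM. Acute phase genes had a median of -0.92, with 5 of 16 called lower, and xenobiotic enzymes -0.68, with 2 of 10.

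The 12 genes of lowest ratio were Serpina3k, Serpina1e, Apoa4, Hrg, Cyp3a11, Igfbp2, Serpina3m, Cyp2d26, Scd1, Serpina1d, Rdh16f2 and C8g. The split was made on secreted hepatocyte products, so lower levels of further hepatocyte genes are not independent of it and are a description. Apoa4, an apolipoprotein, was at 11.6, 101, 37 and 55.7 against 1417, 1306, 1417 and 992 CPM, and Igfbp2, a binding protein of insulin-like growth factors, at 34.9, 22, 39.5 and 21.6 against 371, 394, 449 and 269.6 CPM. Serpina3k, Serpina3m, Serpina1d, Serpina1e, Cyp3a11 and Cyp2d26 belong to families of near-identical copies, and how reads were shared among them is not given in the sources used here. Gpc3, a membrane proteoglycan used as a liver tumour marker, was also lower in product-poor cells, at 29.1, 43.1, 14.8 and 21.6 against 193, 371, 76 and 197 CPM. Afp, another tumour marker, overlapped, from 187 to 302 CPM in the product-poor and from 166 to 829 CPM in the product-rich sets. Gpc3 was picked after its values were seen, and the list of fetal and liver tumour genes was mixed. Of 11 examined, 2 were called higher and 3 lower in product-poor cells, with a median of -0.27.

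The transcription factors of hepatocytes had a list median of 0.04, between -0.14 and 0.21 in the sets, with 2 of 10 called higher and none lower, and it was -0.18 with the products left out of the totals. Hnf4a was at 81.4, 251, 146 and 119.7 CPM in product-poor and 146, 203, 214 and 163 CPM in product-rich cells, higher in the product-poor cells of set 2 and lower in those of sets 1, 3 and 4. Cebpa, the factor that holds hepatocytes in a resting, differentiated state, was at 75.6, 101, 124 and 161 against 73.2, 91.2, 82.9 and 142 CPM. Cebpa was higher in the product-poor cells of each of the 4 sets, and the ranges of the groups overlapped.

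Among the remaining genes of highest ratio, Rgs5, a brake on G protein signalling, had the highest log2 ratio, 4.65 (4.04 to 5.25), and was at 17.4, 553, 97.1 and 201 CPM in product-poor cells, highest in set 2. Sprr1a, a cornified envelope protein seen in regenerating tissue, was at 40.7, 665, 18.9 and 252 against 5.23, 38.4, 20.7 and 12.3 CPM, high in sets 2 and 4 and near the product-rich level in set 3. Igfbp3, a p53-induced binding protein of insulin-like growth factors, was at 87.2, 432, 81.4 and 221 against 73.2, 60.8, 20.7 and 14.1 CPM. Hspb1 was at 1198, 431, 269.8 and 345 against 41.8, 51.2, 62.2 and 4.71 CPM, without overlap. Cox6b2, Creb5 and Anxa3 completed the 12, with Anxa3, a calcium-dependent membrane protein, at 145, 181, 28.8 and 87 against 10.5, 16.8, 20.7 and 4.71 CPM.

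Leukocyte RNA moved with the split in part. The 8 leukocyte markers summed to 785, 2022, 2343 and 3941 CPM in product-poor and to 904, 1074, 2343 and 1415 CPM in product-rich cells of sets 1 to 4, so they were higher in product-poor cells of sets 2 and 4, equal in set 3 and lower in set 1. Haemoglobin RNA was at 3764 against 333 CPM in set 4 and at 1019 against 1301 CPM in set 2. The part of this RNA in the gene differences was not tested. With the cells that had a UMI of Ptprc, Cd52, Pecam1 or Dcn left out, 291 genes were called higher and 194 lower.

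Few cells carried RNA of cell division. Mki67, a marker of dividing cells, was seen in 18 of 775 cells (2.32%), in 0.393% of product-poor and in 6.02% of product-rich cells. At 2000 UMIs per cell it was in 0 of 466 product-poor cells, which allows up to 0.788% (95% exact bound), and in 2.83% of 247 product-rich cells (1.15 to 5.75%), with B cells at 0.833% (0.336 to 1.71%). Cdk1, the kinase of mitotic entry, was seen in 0.215% of product-poor and 4.05% of product-rich cells (1.96 to 7.32%) at that depth, with B cells at 0.476% (0.13 to 1.21%). Top2a, another gene of dividing cells, was seen in 0.644% and 1.21%, with B cells at 1.19%. Only the product-rich share of Cdk1 had an interval clear of that of B cells among these 3 genes, and the intervals of Mki67 and Top2a overlapped. The intervals cover counting error only, over cells pooled across sets, and B cells may include dividing cells. Of 26 cell cycle genes listed, 3 passed the filter on low values, with a median log2 ratio of 0.09 and none called.

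Zbtb17, which encodes Miz1 and lies on chromosome 4 (141444654 to 141467930, plus strand), was at 10.1 CPM (95% Poisson interval 7.86 to 12.9) over all Krt8/Krt18 cells, from 67 UMIs. By set it stood at 13.8, 6.28, 16.2 and 10.0 CPM, resting on 5, 15, 22 and 25 UMIs. The 3' reads of this library kit need not cover a deleted exon, so the level does not check the genotype. Mtdh, which encodes metadherin, a protein linked to NF-kB activation, was at 116, 109.8, 129 and 129.7 CPM, nearly even across the sets, and at 169, 148, 137 and 149 CPM in product-poor against 68, 75.2, 62.2 and 104 CPM in product-rich cells.

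The Krt8/Krt18 cells were clustered among themselves without the rule genes and fell into 6 sub-clusters, numbered by size and given no cell type name. Sub-cluster membership followed the barcode sets as well as the product share, and cluster genes are a description. Sub-cluster 2 (221 cells, 110 of set 2 and 86 of set 4) and sub-cluster 5 (47 cells, 25 of set 2) held most product-rich cells, with median shares of 20.5 and 14.8%. Sub-cluster 5 was mixed, with 29 product-rich and 18 product-poor cells, and in set 4 with 3 and 13. Sub-cluster 1 (253 cells, 195 of set 3), sub-cluster 3 (137 cells, 121 of set 4) and sub-cluster 4 (103 cells, 97 of set 2) had medians of 3.62, 5.35 and 2.32%. Each of these 3 product-poor sub-clusters therefore came mostly from 1 set, and a state of cells cannot be told apart from that set. Sub-cluster 6 held 14 cells.

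**Figure D5:**
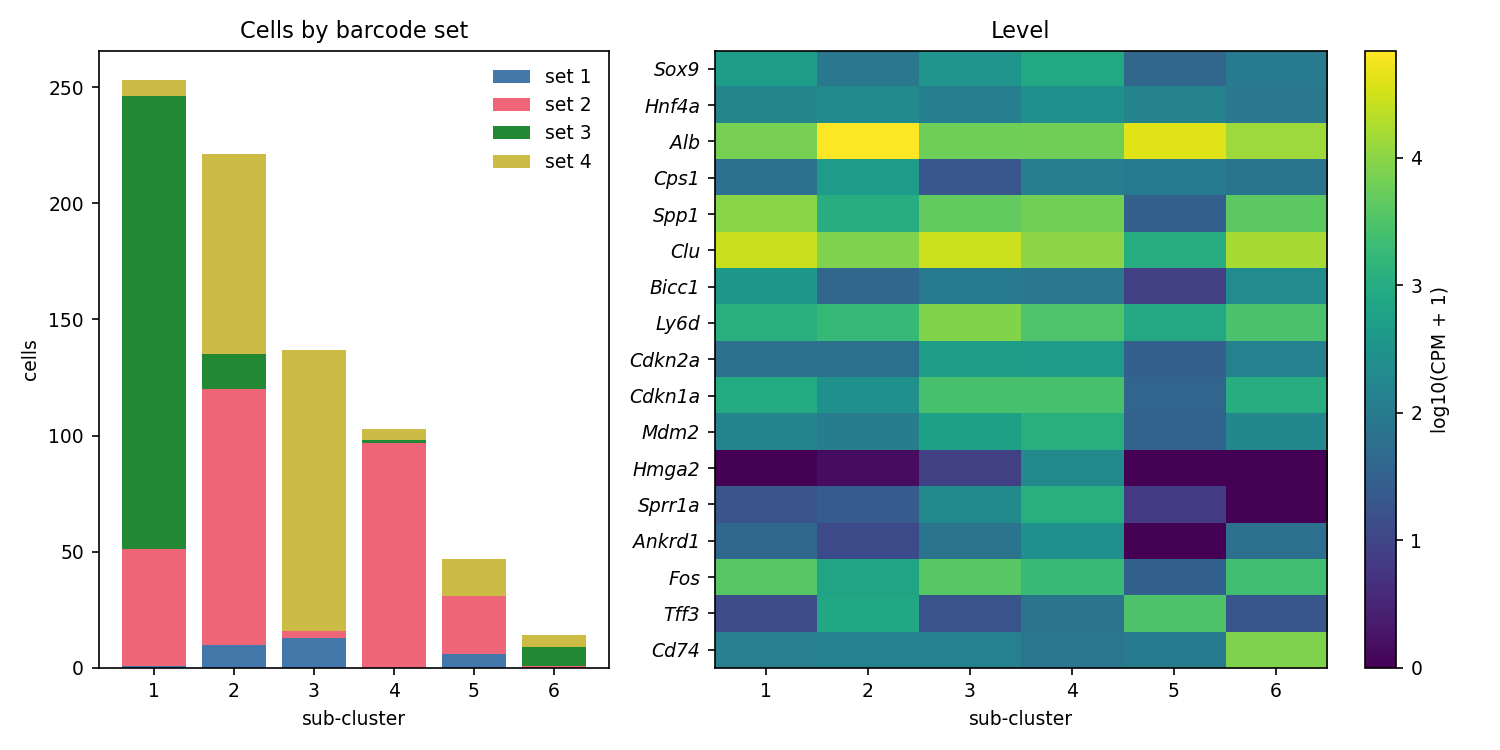
Number of cells per sub-cluster by barcode set, and levels of 17 genes per sub-cluster as log10 of CPM plus 1. Sub-clusters 1, 3 and 4 come mostly from sets 3, 4 and 2, Alb is highest in sub-cluster 2, Ly6d in 3, Hmga2 and Sprr1a in 4, Tff3 in 5 and Cd74 in 6.

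Sub-cluster 1 was led by Igha, Ctgf, Marcks, Adamts1 and Bicc1. Bicc1, an RNA-binding protein of duct cells, was at 382 CPM there and at most 219 CPM in any other sub-cluster. Ctgf was at 119 CPM, and Spp1 at 9333 CPM, its highest level among the sub-clusters. Igha, an immunoglobulin heavy chain of plasma cells, was at 2884 CPM, and Igkc at 3334 CPM, while Igkc in B cells was at 34592 CPM.

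Sub-cluster 3 was led by Ly6d, Tnfrsf18, Klf2, S100g and Cdkn2a. Ly6d, a small surface protein of early B cells and epithelia, was at 8500.5 CPM there, above the 1609 CPM of B cells, with 3221 CPM in sub-cluster 4 and 1081 CPM in sub-cluster 1. Cdkn2a was at 519.8 CPM in sub-cluster 3 and 448 CPM in sub-cluster 4, against 60.7 CPM in sub-cluster 1. Cdkn1a was at 2695 and 2635 CPM in sub-clusters 3 and 4 and at 958 CPM in sub-cluster 1. Hes1 separated them the other way, at 700.3 CPM in sub-cluster 3 and 2615 and 2626 CPM in 4 and 1.

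Sub-cluster 4 was led by Hmga2, Sprr1a, Rgs5, Tnfrsf23 and S100a6. Hmga2, a chromatin protein of embryonic and tumour cells, was at 196 CPM there and at most 7.39 CPM elsewhere, and by set the Krt8/Krt18 cells had 0, 61.6, 0 and 6.41 CPM. Sox9, Mdm2 and Ankrd1 were highest in sub-cluster 4 among the 6, at 865, 1088 and 268 CPM. Hnf4a was at 263 CPM there, also the highest of the 6, although the product share was the lowest. Igfbp3 was at 651 CPM against 89 CPM in sub-cluster 1.

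Sub-cluster 2 was led by Cyp2d26, Scd1, Ighg2c, Cps1 and Serpina3m, and Alb was at 68766 CPM there. Sub-cluster 5 was led by Gstp2, Wfdc21, Fabp1, Orm1 and Gstm3, which are detoxification, lipid transport and acute phase genes. Fabp1 was at 5875 CPM in sub-cluster 5 and 1209 CPM in sub-cluster 2, and Tff3, a mucosal repair peptide, at 3057 and 778 CPM. In sub-cluster 5, Fos was at 31.4 CPM, Klf6 at 12.9 CPM, Krt8 at 371 CPM and Cdkn1a at 36.9 CPM, each the lowest of the 6 sub-clusters. Spp1 and Clu were also lowest there, at 29.5 and 1015 CPM. Sox9 was above 0 in 29.8% of its cells and in 75.7% of the cells of sub-cluster 4.

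Sub-cluster 6 was led by Cd74, H2-Eb1, Lyz2, H2-Aa and H2-Ab1, genes of cells that present antigen. Ptprc, which encodes the common leukocyte antigen, was above 0 in 92.9% of its 14 cells, against 5.84 to 14.9% of the cells of the other sub-clusters. Krt8 was at 1793 CPM and Cd74 at 7887 CPM in the same droplets. No doublet caller was run and the cells were kept in all counts.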

How the data were processed

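Droplet libraries (10x Genomics Single Cell 3' v2 kit, HiSeq XTEN, per the labels' protocols) were processed with CASAVA 1.8, Cell Ranger and Seurat on mm10, per the submitters' processing notes. Each deposited value is on a natural log scale, ln(1 + x), where x is the gene's share of its cell's UMIs times 10000. This was read from the values, which sum to 10000 per cell after reversal, with 100% within 0.001 of a whole number of UMIs. No source used here gives the cell filters or strand handling. No file maps cells to samples, so no test was run between genotypes and 0 columns of other series were present.

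UMIs were summed per class and barcode set and scaled to 1000000. Log2 ratios used a pseudocount of 10 CPM, a minimum mean of 20 CPM per gene and sets with at least 20 cells of both classes. Intervals for shares are exact (Clopper-Pearson) and those for levels Poisson, and both cover counting error only. Sub-clusters came from scanpy 1.11.5 (2000 variable genes, 20 components, 15 neighbours, Leiden resolution 0.5, seed 1). No cell was removed as a doublet. Only the gene comparisons between classes were tried on simulated data, with UMIs drawn at random. The class rules, thinning, clustering and barcode comparison were not.

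The members, gene lists, markers and comparisons were chosen with earlier results of these data known, and the product split was added after the product shares were seen. Named genes are the rule genes, Zbtb17 and Mtdh, members of the lists (up to 6 of highest level and genes that define an axis), the 12 highest and lowest ratios of a comparison and the 5 leading genes of a sub-cluster. Other genes printed with a value, such as Gpc3, Fabp1 in sub-clusters and Bicc1, were singled out after their values were seen. Positions are from GENCODE vM21 on GRCm38. Calculations used Python 3.11.15, numpy 2.4.6, scipy 1.17.1, pandas 2.3.3 and matplotlib 3.10.9.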

Additional observations from a re-analysis of the deposited data

How the results depend on the processing

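No paired analysis was possible because cells could not be tied to samples. The number of cells was between 539 and 944 under the 6 other rules and filters tried. Against hepatocytes (400 higher, 35 lower), a pseudocount of 50 CPM gave 109 and 10, a minimum of 100 CPM 94 and 20, at least 500 genes per cell, which leaves set 4 alone, 1286 and 326, centring on the median 167 and 99, hepatocytes with 20% products 844 and 68, and members with both Sox9 and Fst 759 and 129, the last 2 in sets 2 and 4 only, where fewer sets have to pass. No filter gave 890 higher and at least 5 rule genes 58 lower. Leaving out 1 set in turn gave 599 to 655 higher and 62 to 84 lower. The 7 lists at least 1 log2 unit from all genes became 4 (50 CPM), 2 (no filter), 4 (100 CPM), 13 (20% products) and 11 (Sox9 and Fst). The NF-kB list turned to -0.10 with at least 500 genes per cell. For product-poor over product-rich cells (266 higher, 211 lower), pseudocounts of 1 and 50 CPM gave 432 and 92 higher, the latter with 105 lower, a minimum of 100 CPM 103 and 110, centring 155 higher, set 3 added 152 higher, and under 5% against at least 15% 498 higher. Leaving out set 2 or 4 gave 447 to 571 higher and 294 to 301 lower. The 6 lists became 11 (1 CPM), 2 (50 CPM), 3 (no filter) and 10 (under 5% against 15%). The median of the hepatocyte transcription factors, 0.04, turned to -0.0703 (no filter), -0.0557 (thinned), -0.0596 (under 5% against 15%), -0.20 (centred), -0.14 (without set 2, against 0.212 without set 4), -0.0238 (without shared barcodes) and -0.18 (products out of totals). The other lists tried kept their sign, as did the 5 highest and 5 lowest genes of each comparison. Resolution 0.25 gave 5 sub-clusters and 1.0 gave 11. Where counts moved the cause was not tested. The comparison with hepatocytes thinned to 2000 UMIs, which leaves too few hepatocytes, and every alternative for duct cells were not run, since no set held 20 duct cells.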

Other observations

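Stress programmes other than the p53 and immediate early genes differed less between product-poor and product-rich Krt8/Krt18 cells. Genes of the integrated stress response, which follows amino acid or protein folding stress, had a median log2 ratio of 0.67 with 5 of 12 called higher, heat shock genes 0.58 with 3 of 14, and targets of the antioxidant regulator NRF2 0.53 with 2 of 21, against 0.24 for all genes and with none of the 3 lists holding a gene called lower. Genes of the epithelial cytoskeleton and junctions had 0.77, with 9 of 32 called higher and 2 lower. The list around Miz1 and Myc had 0.53, with 1 of 10 called higher. Myc, a growth-promoting transcription factor that binds Miz1, was at 46.5, 106, 165 and 73.8 CPM in product-poor and 5.23, 17.6, 27.6 and 17 CPM in product-rich cells of sets 1 to 4, and every product-poor set lay above every product-rich set. Hbegf, a ligand of the EGF receptor, was at 651, 531, 253 and 402 against 73.2, 70.4, 62.2 and 76.4 CPM, also without overlap, while the list of growth factors and receptors as a whole had a median of 0.02, with 3 of 16 called higher and 2 lower. Glycolysis genes had a median of 0.05, with 2 of 14 called higher and none lower.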
